A study of Mus musculus with 8 samples.

Results

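The regions described here had an ATAC-seq peak in spermatogonia at 120 h post-RA and no called peak at the earlier timepoints. They were chosen by their peaks. Peaks of all 8 ATAC-seq libraries were joined into 87144 merged regions wherever they overlapped by 1 bp or more. A region was kept when both 120 h libraries had a peak in it and none of the 6 libraries of 0, 18 and 48 h did. This gave 831 regions, which were 0.954% of all merged regions and 3.76% of the 22112 regions with a peak in both 120 h libraries.

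ATAC-seq uses a transposase to cut and tag DNA in open chromatin, so that tags accumulate where the DNA is accessible. The cells were eGFP-positive germ cells sorted from the testes of PIWIL2-eGFP mice, in which the Piwil2 promoter drives eGFP in germ cells from before birth until the early spermatid. All mice were fed WIN 18,446, which blocks the synthesis of retinoic acid (RA), for 7 days from 2 dpp. Mice of the 0 h group were collected without RA, whereas the others received RA at 9 dpp and were collected 18, 48 or 120 h later. The study assigns these timepoints to undifferentiated A, A1/A2, A3 and B spermatogonia. Each timepoint had 2 libraries of 1 mouse each, so the spread between libraries is the spread between mice and their preparation. The strain is C57BL/6 x 129s4/SvJae in the labels and C57BL/6 x SJL in the methods.

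RA commits undifferentiated spermatogonia to differentiation, and type B cells are the last spermatogonia before the entry into meiosis. A gene start in a CpG island is open in most cell types, whereas distal elements in introns and between genes open in a more cell-type-restricted way, since they carry the binding sites of the transcription factors a cell has at that stage. DM-domain factors such as DMRT1 and DMRTB1 are among the transcription factors of spermatogonia, and the DNA sequence that DMRT1 is known for contains the word ACATTGT.

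The sequences of 6 member windows are shown first, because a pair of sequence elements is described from them. Each window is 200 bases of the plus strand of mm10 (GRCm38, RefSeq sequence), centred on the summit of the higher 120 h peak. Capitals mark a short element, GNNACAGTNNC, and a long element, GNNACANTGTNNC, on either strand, where N is any base. Dll4, Stra8 and Msh5 came from the naming rule, whereas the windows of Mta3, Ldhc and Exd1 were picked for display after their sequences were seen.
Mta3, intron, chr17:83762429-83762628: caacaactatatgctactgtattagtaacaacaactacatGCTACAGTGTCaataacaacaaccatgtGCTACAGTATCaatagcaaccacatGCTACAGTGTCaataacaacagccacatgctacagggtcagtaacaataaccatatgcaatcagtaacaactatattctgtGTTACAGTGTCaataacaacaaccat
Exd1, 4437 bp upstream, chr2:119551965-119552164: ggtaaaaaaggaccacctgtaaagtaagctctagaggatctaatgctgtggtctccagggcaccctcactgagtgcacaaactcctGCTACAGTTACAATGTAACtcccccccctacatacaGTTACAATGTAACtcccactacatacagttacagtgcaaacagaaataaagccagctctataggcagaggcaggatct
Dll4, intron, chr2:119333085-119333284: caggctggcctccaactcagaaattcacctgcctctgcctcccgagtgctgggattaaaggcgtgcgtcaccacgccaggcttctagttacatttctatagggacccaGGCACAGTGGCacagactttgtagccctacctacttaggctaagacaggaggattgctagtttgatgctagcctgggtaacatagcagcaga
Msh5, 9597 bp upstream, chr17:35056221-35056420: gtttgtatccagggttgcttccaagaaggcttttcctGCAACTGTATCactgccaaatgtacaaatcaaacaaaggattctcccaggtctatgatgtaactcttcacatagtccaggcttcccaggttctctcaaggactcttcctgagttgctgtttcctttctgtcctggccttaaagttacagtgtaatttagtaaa
Ldhc, downstream, chr7:46887805-46888004: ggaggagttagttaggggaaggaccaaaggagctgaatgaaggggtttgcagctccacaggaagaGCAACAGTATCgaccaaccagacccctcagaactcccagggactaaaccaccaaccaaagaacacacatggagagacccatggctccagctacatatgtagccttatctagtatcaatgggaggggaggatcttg
Stra8, intron, chr6:34921981-34922180: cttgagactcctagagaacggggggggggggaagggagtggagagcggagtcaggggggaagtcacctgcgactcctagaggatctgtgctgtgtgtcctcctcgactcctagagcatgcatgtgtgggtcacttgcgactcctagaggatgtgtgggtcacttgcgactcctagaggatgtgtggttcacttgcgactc

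The intron of Mta3, which encodes a subunit of the NuRD chromatin remodelling complex, held 4 copies of the short element in 1 window. The window upstream of Exd1, a gene of the piRNA pathway, held the short element overlapping the long one, and a further copy of the long element. The window in the intron of Stra8, the RA-induced gene needed for the start of meiosis, held neither element. It held 5 separate copies of the word ACTCCTAGA.

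Both elements were written down after the sequences had been examined. The starting point was a ranking of all words of 6 letters by the share of the 831 member windows that held them, minus the share of the 15536 windows of regions shared by all 8 libraries. GATACA stood first, with 36.5% of member windows against 10.2%. ACTGTA came next with 30.2% against 5.79%, and ACAGTA with 28.2% against 5.01%. In regions found at 0 h alone the same words were in 10.4%, 5.76% and 6.76% of windows. Among words of 8 letters, ACTGTATC led, with 8.78% of members against 0.779%. These words overlap one another and describe 1 pattern, in which GATACA or a close relative runs into AGT. In the long element, GNNACA faces its reverse complement with 1 letter between them. The short element is 2 letters shorter, with GNNACA followed directly by GTNNC.

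The short element was in 206 of the 831 members, or 24.8% (95% Wilson interval 22.0 to 27.8, which covers counting error only). It was in 3.59% of the regions shared by all 8 libraries, in 3.0% of the regions found at 0 h alone and in 4.55% of all merged regions. Of the members, 43 held at least 2 copies and 17 held at least 3. The long element was in 96 members, or 11.6% (interval 9.55 to 13.9), against 7.02% of the regions in all 8 libraries and 5.83% of all merged regions. Both elements together were in 17 members, and at least 1 of them in 285, or 34.3%, against 9.85% of all merged regions.

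As a control for base composition, the letters of the short element were searched in reverse order, as CNNTGACANNG. This word was in 4.45% of members, against 1.85% of the regions in all 8 libraries and 2.16% of all merged regions. The ratio of members to the regions in all 8 libraries was thus 2.4 for this word and 6.9 for the short element. The short element was written from words ranked on these same windows, whereas the reversed word was not. The gap between the ratios therefore includes that choice. The shares of the short element in members and in regions of all 8 libraries are a description and no test. The median GC content was 48.0% in members, 61.5% in regions of all 8 libraries and 51.5% in regions found at 0 h alone. Repeats covered 14.6% of an average member window and 18.0% of an average window of the regions at 0 h alone.

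At the free positions of the short element, the 282 copies in members did not use the bases evenly. At position 3, counted from 1 at the G, 45.4% had T and 38.7% had A, whereas 3.55% had G. At position 9, 42.2% had A and 32.6% had T, whereas 4.61% had C. In the 591 copies found in regions of all 8 libraries, the corresponding shares were 21.2% T, 34.0% A and 21.3% G at position 3, and 19.6% A, 26.7% T and 22.3% C at position 9. Several of these copies could lie in the same window. The ranked words GATACA and ACAGTA already had T before ACA and A after ACAGT. Member windows also had a lower GC content, and the part of these points in the shares was not tested. No single copy dominated. GATACAGTTAC, GCAACAGTAGC and GCTACAGTATC were the most frequent, with 9 copies each.

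The elements in members lay at the peak summit. The short element had its centre in the 40 bp to the left of the summit in 8.66% of members and in the 40 bp to the right in 8.78%. Between 120 and 160 bp from the summit, these shares were 1.08% and 0.963%. The reversed word showed no such peak, with 0.722% and 0.842% beside the summit. The short element was written from words ranked in the 200 bp windows of these members, whereas the reversed word was not. The higher share of the short element inside the window than at 120 to 160 bp therefore includes that choice. Inside the window, between 40 and 80 bp from the summit, the short element was in 5.05% of members to the left and 6.74% to the right. In regions of all 8 libraries the short element was in 0.888% and 0.895% of regions beside the summit. The long element was centred on the summit in both sets, with 4.09% and 5.05% in members and 2.3% and 2.63% in regions of all 8 libraries.

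**Figure D1:**
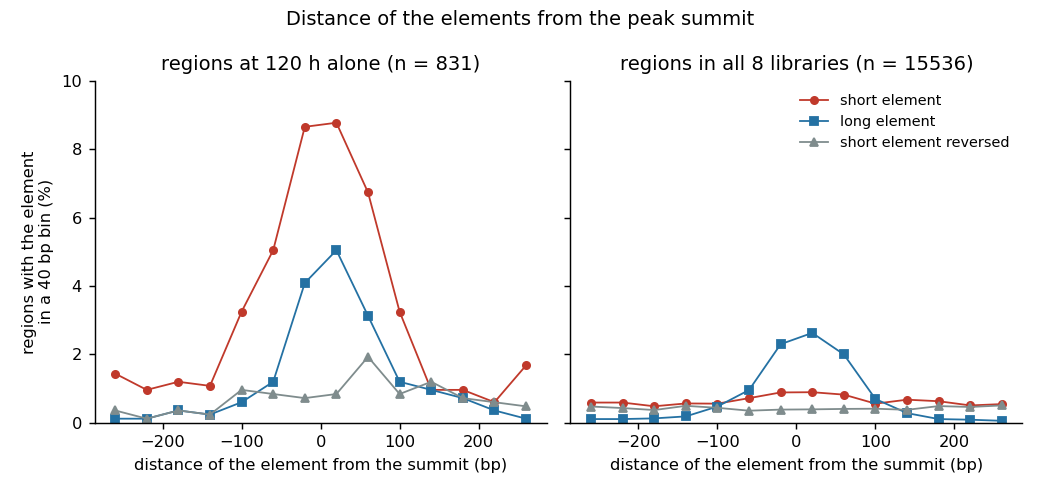
Percent of regions with the short element, the long element or the reversed short element in bins of 40 bp by distance from the peak summit, for the 831 regions at 120 h alone (left) and the 15536 regions in all 8 libraries (right). The short element reaches 8.78% beside the summit in the members and stays at or below 0.895% in the regions of all 8 libraries, whereas the long element peaks at the summit in both. The short element was written from words ranked in the 200 bp windows of the members.

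The share of windows with the short element fell with the number of earlier libraries that had a peak. Among regions with a peak in both 120 h libraries it was 24.8% where 0 earlier libraries had one, 15.9% with 1, 10.9% with 2, 7.97% with 3, 5.95% with 4, 4.76% with 5 and 3.59% with all 6. The long element showed no such order, with 11.6%, 15.0%, 9.2%, 8.93%, 6.79%, 8.91% and 7.02%. GC content rose over the same classes from a median of 48.0% to 61.5%, and the reversed word went from 4.45% to 1.85%. The part of base composition in these shares was not tested further than by this word.

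**Figure D2:**
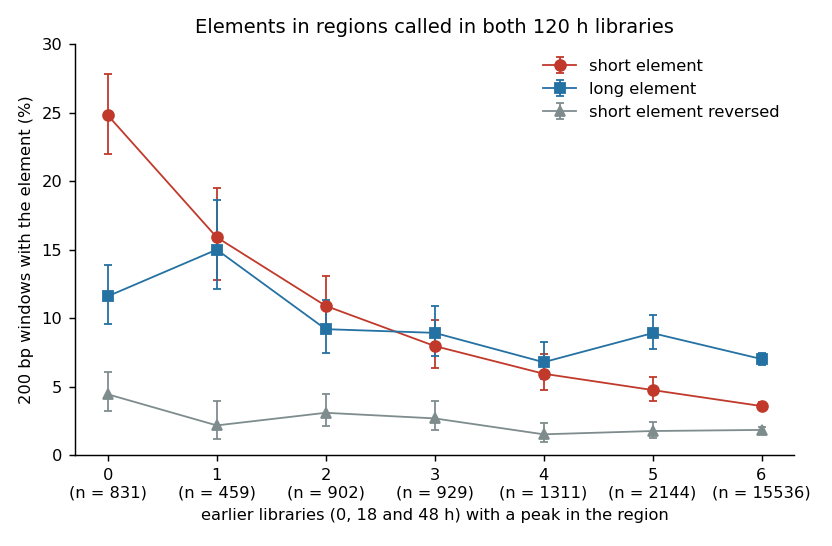
Percent of 200 bp windows with each element (y axis) among regions with a peak in both 120 h libraries, by how many of the 6 earlier libraries had a peak in the region (x axis), with 95% Wilson intervals. The short element goes from 24.8% to 3.59%, while the long element stays between 6.79% and 15.0%.

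The short element was not evenly present in both 120 h libraries. Regions with a peak in a single library did not enter the choice of members. Of the 3009 regions found in 120 h replicate 1 alone, 17.0% (interval 15.7 to 18.4) held the short element and 11.9% the long one. Of the 694 regions found in 120 h replicate 2 alone, 5.33% (interval 3.89 to 7.26) held the short element and 1.73% the long one. In the 6 earlier libraries, the regions found in that library alone held the short element in 3.26% to 5.45% of windows. Hence the share in regions of 120 h replicate 1 alone was above that of each other library, and the share in regions of 120 h replicate 2 alone was within the range of the earlier libraries. The reversed word was in 3.16% and 4.32% of the windows of the 120 h libraries. When the members were chosen without 120 h replicate 1 they numbered 1556, of which 15.3% held the short element. Without 120 h replicate 2 they numbered 3853, of which 18.7% did. Each choice takes in the members themselves beside regions of the 120 h library that was kept. These shares are therefore mixtures and do not show that library by itself. With 2 mice, a difference between the mice in stage or cell make-up cannot be told apart from a difference between the libraries.

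**Figure D3:**
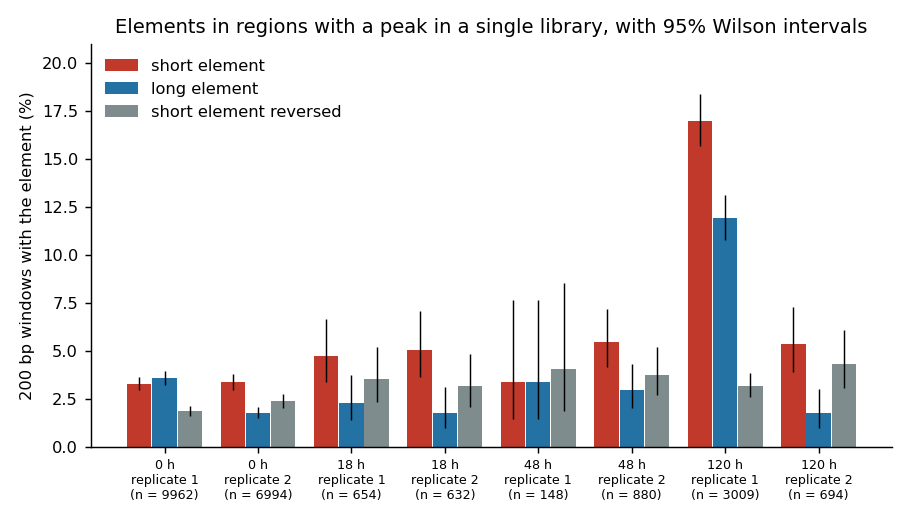
Percent of 200 bp windows with each element among regions that had a peak in 1 library alone, by library (x axis, with the number of regions), with 95% Wilson intervals. The short element is in 17.0% of the regions of 120 h replicate 1 and in 5.33% of those of 120 h replicate 2.

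Within the members, the height of the peak made little difference. The 277 members with the lowest values held the short element in 23.1% of windows, the next 277 in 24.2% and the 277 highest in 27.1%. The long element went the other way, with 13.7%, 12.3% and 8.66%. Of the 12 highest members 1 held the short element, and of the 50 highest 12. Location made more of a difference. The short element was in 11.1% of the 54 members within 1000 bp of a gene start and in 25.7% of the other 777. It was in 25.8% of members with the summit in an intron, 24.7% of intergenic ones and 16.4% of those in an exon.

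Of 28 words listed for transcription factors known in testis or common at open chromatin, ACATTGT was among those with a higher share in members than in the other sets. It was in 18.7% of members, 9.31% of the regions in all 8 libraries, 7.22% of those at 0 h alone and 9.69% of all merged regions. ACATTGT is a form of ACANTGT, the middle of the long element, so its share is not separate from that of the long element. TGTGGT, a RUNX word, was in 18.4% of members and 13.4% of all merged regions. Words typical of gene starts were rarer in members. GGGCGG, which SP and KLF factors bind, was in 3.85% of members against 46.2% of the regions in all 8 libraries, and CCGGAAGT, an ETS word, in 0.12% against 5.24%. For the RA pathway, AGGTCA, which nuclear receptors such as the RA receptors use, was in 9.51% of members against 10.6% of all merged regions. A direct repeat of that kind with a spacer of 5 bases was in 0 of the 831 members, which allows a share of up to 0.361%, against 0.0918% of all merged regions. The element reported for STRA8 with MEIOSIN, CNCCTCAG, was in 4.57% of members against 5.5%.

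The members were distal. Only 54 of the 831, or 6.5% (interval 5.01 to 8.38), had the nearest gene start of the table within 1000 bp, against 57.2% of the regions in all 8 libraries and 26.1% of the 5745 other regions called at 120 h. Regions found at 0 h alone were as rarely at a gene start, with 7.19%. A CpG island was in 4.81% of members and 58.6% of the regions in all 8 libraries. The summit lay in an intron in 58.8% of members, against 30.1% of the regions in all 8 libraries and 39.0% of those at 0 h alone. No gene was assigned to 201 members, or 24.2%, against 43.2% of the regions at 0 h alone. In the last 2 properties the intervals of members and regions at 0 h alone did not overlap. The intervals cover counting error only and not the spread between mice, and no test was made.

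**Figure D4:**
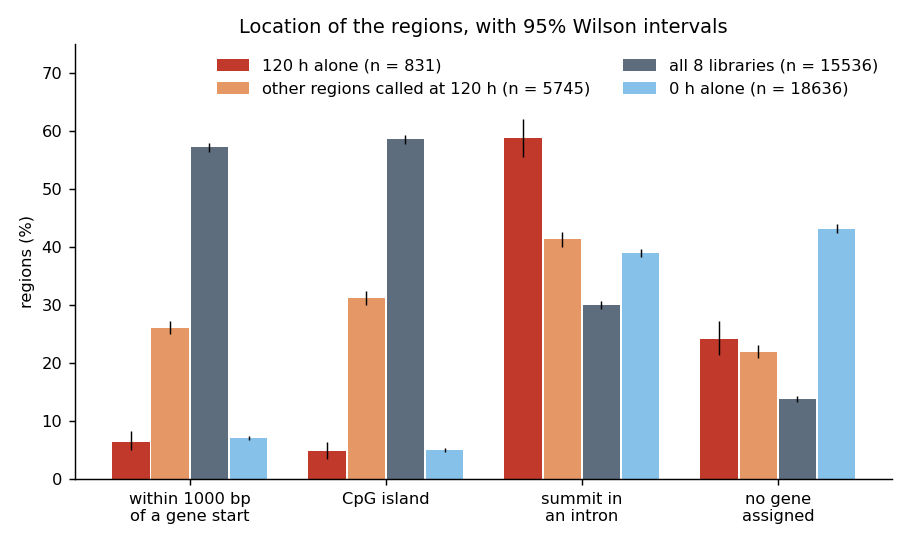
Percent of regions (y axis) within 1000 bp of a gene start, with a CpG island, with the summit in an intron and with no gene assigned, for 4 sets of regions, with 95% Wilson intervals. The members are at 6.5% for gene starts and 58.8% for introns, against 57.2% and 30.1% of the regions in all 8 libraries.

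Chromosome X held 3 of the 831 members, or 0.361% (interval 0.123 to 1.06), against 2.19% of the regions in all 8 libraries, 1.93% of the other regions called at 120 h and 2.21% of those at 0 h alone. The share of all peaks on X was 1.67% in 120 h replicate 1 and 2.0% in replicate 2, and 1.84% to 2.02% in the earlier libraries.

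By the rule, no member overlapped a region with a peak in an earlier library. The distance to the nearest such region had a median of 4076 bp and was not compared with that of other sets. It was at most 1000 bp for 195 members and over 10000 bp for 219. Only 26 members lay within 10000 bp of another member. The members were short, with a median of 379 bp against 819 bp for the regions in all 8 libraries.

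The summit values that follow selected the members, and they are given as a description. The value is the tag coverage at the summit after the authors had reduced each library to the same number of tags. In 120 h replicate 1 the members ranged from 29 to 408 with a median of 84, and in replicate 2 from 27 to 307 with a median of 52. The medians of regions in all 8 libraries were 166 and 106, so the members were low peaks. Both values were at least 50 in 447 members, at least 100 in 65 and at least 200 in 4. The value was higher in replicate 1 in 747 members, higher in replicate 2 in 78 and equal in 6. Replicate 1 was also the higher library in the shared regions, with a median log2 ratio of 0.537 against 0.646 in members. In members with the short element the median log2 ratio was 0.85, and in those without it 0.58. The summits of both libraries were at most 64 bp apart in 706 members.

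**Figure D5:**
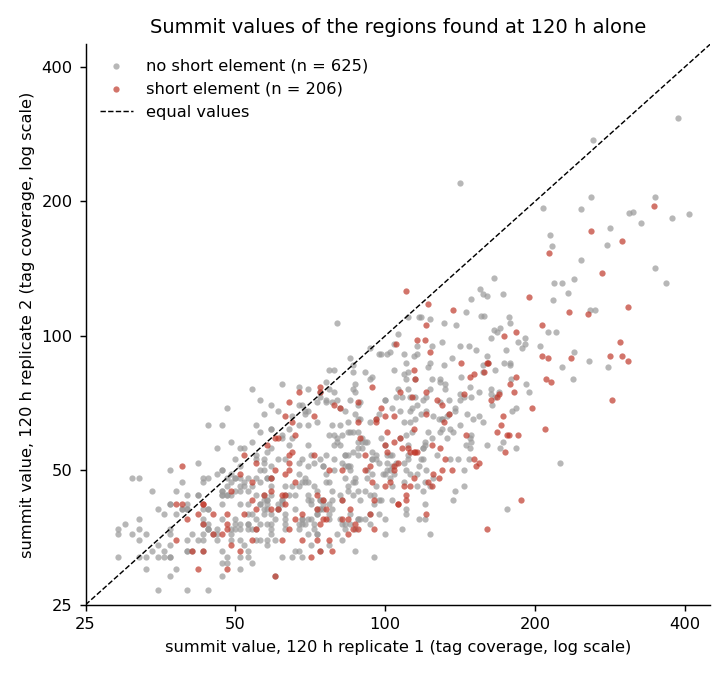
Summit value of each member in 120 h replicate 1 (x axis) and replicate 2 (y axis), as tag coverage on log scales, with members that hold the short element in red. Most points are below the line of equal values, with 747 of 831 members higher in replicate 1.

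At the edge of the rule, 10 members had a lower value under 30. A further 459 regions were left out by a peak in 1 earlier library, of which 237 were in 0 h replicate 1, 94 in 0 h replicate 2 and 72 in 48 h replicate 2. That earlier peak was between 29 and 232 high with a median of 48. At 120 h these regions had median values of 85 and 51, close to those of the members. Each library's lowest peak had a value of 24 or 25, and a region without a peak may still have had signal below this limit. In such bulk libraries, fewer cells with an open region and less opening per cell cannot be told apart.

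The 12 highest members by the lower of the 120 h values were mostly in introns of genes whose own start was open at every timepoint. The highest, at chr17:35967434-35967876 in an intron of Abcf1, a factor in the start of translation, had 387 in replicate 1 and 307 in replicate 2. At the start of Abcf1, 2134 bp away, the 0 h libraries had 346 and 510, the 18 h libraries 132 and 179, the 48 h libraries 130 and 168, and the 120 h libraries 360 and 290. The intronic region therefore appeared beside a gene start that was open throughout.

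The region in an intron of Dll4, a Notch ligand, had 347 and 195, and the start of Dll4 had values between 60 and 89 in all 8 libraries. Others among the 12 were in an intron of Dstn, an actin-severing protein, with 348 and 204, and in an intron of Pacsin1, an adaptor of endocytosis, with 259 and 205. Pacsin1 had a peak at its start in the 0 h libraries, with 55 and 126, and in no later library. A region between Pfas, a purine synthesis enzyme, and Ctc1, a telomere protein, had 309 and 188. The region in Sipa1, also assigned to Rela, the p65 subunit of NF-kB, had the highest value of any member in replicate 1, 408, with 187 in replicate 2. Regions in Mmp17, a membrane metalloprotease, and Fyb, an adaptor of T cells, had 377 and 184, and 326 and 179. The start of Fyb had a peak in 0 h replicate 1 alone. The other 2 were at Gm7244 and Gm10910, with 314 and 189, and at chr19:5823349-5824042 with no gene assigned, with 247 and 192.

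By gene, the members were spread thinly. They were assigned to 812 genes, or 4.95% of the 16393 genes with a region called in both 120 h libraries. Of these, 622 also had a region with a peak in all 8 libraries, and 126 had no other region called in both 120 h libraries. With 25 genes holding 2 members and 1 holding 3, most genes had 1. The gene with 3 was Mta3. Its regions were at chr17:83705709-83706045 with 65 and 59, at chr17:83706122-83706428 with 42 and 52, and in the intron shown above, at chr17:83762182-83762939, with 176 and 60. The first and second lay at the start, in a CpG island, where 5 of the 6 earlier libraries had a peak within 1000 bp that did not reach them.

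Lists of germ cell genes had members at 1 to 3 genes each, and counts this small cannot tell their share from the 4.95% over all genes. Of the lists of germ cell stages, 1 of 24 genes of undifferentiated spermatogonia called at 120 h had a member, as did 2 of 20 of differentiating spermatogonia, 3 of 49 of meiotic prophase, 2 of 24 of haploid spermatids and 2 of 21 of the piRNA machinery. The retinoid pathway had 1 of 23, cell cycle genes 2 of 36, and Hox cluster genes 0 of 34. None of the 8 germ cell markers had one.

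Stra8 was the highest of these. Its member, at chr6:34921766-34922348 in an intron 1120 bp from the start and in a CpG island, had 141 in replicate 1 and 220 in replicate 2, and was thus among the 78 members that were higher in replicate 2. At the start of Stra8, the 0 h libraries had 123 and 159, the 18 h libraries 133 and 192, the 48 h libraries 165 and 168, and the 120 h libraries 202 and 182. Thus the start was open at every timepoint, and the intronic region was called at 120 h alone. The window of the intronic region holds 5 copies of ACTCCTAGA, and how well reads can be placed there was not examined. Neurog3, a transcription factor of progenitor spermatogonia, had a member 2558 bp from its start on the downstream side with 98 and 91, and no peak within 1000 bp of its start in any library.

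Tex14, which is needed for the bridges between germ cells, had 2 members in introns with 78 and 63, and 59 and 62. Their windows shared a run of 75 identical bases although the regions lie 9038 bp apart, so reads of one could be placed in the other and these values are uncertain. They were the only members whose windows shared a run of 50 bases with another member.

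Among meiotic genes, the member upstream of Msh5, which acts in crossover formation, had 145 and 60, and the one in an intron of Hormad2, of the meiotic chromosome axis, had 40 and 35. The starts of both genes were open in all 8 libraries, with 260 to 735 at Msh5 and 161 to 564 at Hormad2. Of the genes of haploid cells, Ldhc, the lactate dehydrogenase of testis, had a member on its downstream side with 94 and 47. Its start had a peak in 3 libraries, with 75 and 108 at 0 h and 39 in 120 h replicate 2. Hspa1l, a heat shock protein of spermatids, had a member 3103 bp upstream with 141 and 72.

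Of the piRNA genes, the member upstream of Exd1 had 194 and 122, and the one in an intron of Tdrd12 had 58 and 34. The starts of both were open in all 8 libraries. E2f8, an atypical E2F of the cell cycle, had a member 1519 bp upstream with 134 and 72, and Mycn, a MYC family factor, had one 596 bp upstream with 61 and 68. The start of Mycn had a peak at 0 h, with 80 and 83, and at 120 h, with 82 and 68, but none at 18 or 48 h. The 120 h values within 1000 bp of the Mycn start include the member itself.

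Markers of other testis cells were counted among the member genes and at gene starts in each library. Of the markers called at 120 h, members were assigned to 1 of 8 Sertoli markers, Amhr2, with 81 and 69, to 1 of 4 Leydig and interstitial markers, Cyp11a1, with 212 and 102, and to 1 of 5 endothelial markers, Vwf, with 160 and 57. Over all genes the share was 4.95%, and counts of 1 gene cannot be told from it. None was assigned to a peritubular myoid or macrophage marker. Germ cell markers had a peak at the start in 7 or 8 of 8 genes in every library. Peritubular myoid markers had one in 5 of 7 genes in 120 h replicate 1, with summed values of 419, and in 1 of 7 in replicate 2, with 86. Sertoli markers had 5 and 4 of 10, with sums of 467 and 284. At 0 h these counts were 7 of 7 and 7 of 7 for myoid, and 8 and 7 of 10 for Sertoli markers. At 18 and 48 h they were 2 to 4 of 7 for myoid and 4 to 6 of 10 for Sertoli markers. Leydig and interstitial markers had 1 of 10 in both 120 h libraries, with sums of 92 and 56. Macrophage and blood markers had 1 of 9 in both, with 45 and 37, and endothelial markers 2 of 6, with 134 and 89. The sums of germ cell markers were 2698 and 2202. The part of other cells in the members was not tested.

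Whether the genes with a member also changed at their other open regions was examined in regions that the choice of members did not use. Heights were the log2 of the summit value in the 15536 regions shared by all 8 libraries, with each library centred on its median, and were compared with limma. Of the 912 such regions at a gene with a member, 85, or 9.32%, passed an adjusted p of 0.05 with a higher value at 120 h than 48 h, whereas 9.47% of all regions tested were. Lower were 48, or 5.26%, against 7.45% of all. Against 0 h, 222 were higher, or 24.3% against 23% of all, and 97 lower, or 10.6% against 15.8% of all. The median log2 change of these regions was 0.082 against 48 h, where all regions had 0.053, and 0.208 against 0 h, where all had 0.139. So the shared regions of member genes were called higher about as often as shared regions in general. For the lower calls the shares were below those of all regions in both comparisons, and the difference was not tested.

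The split of higher and lower depended on the centring. Without it, the median of all regions moved to 0.555 against 48 h and to -0.752 against 0 h, and the regions at member genes were then 228 higher and 1 lower against 48 h, and 11 higher and 366 lower against 0 h. The higher calls against 48 h were then 25% of these regions and 23.7% of all, and the lower calls against 0 h 40.1% and 44.8%. The counts against 48 h also rested on single libraries. They were 5 higher and 8 lower without 48 h replicate 1, 2 and 4 without 120 h replicate 2, and by limma 0 and 0 without 48 h replicate 2, where 193 had an unadjusted p under 0.05.

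The region with the largest rise among those called was in Mxi1, an antagonist of MYC, 28534 bp from the gene start. Its summit values were 71 and 41 in the 0 h libraries, 38 and 49 in the 18 h libraries, 59 and 49 in the 48 h libraries, and 407 and 152 in the 120 h libraries. The 120 h libraries were above all others, with a centred log2 change against 48 h of 1.71 (SE 0.33, limma adjusted p = 0.015). Next was a region of Wdr26, of a ubiquitin ligase complex, and Cnih4, with 81 and 86 in the 0 h libraries, 39 to 51 in those of 18 and 48 h, and 246 and 138 in the 120 h libraries (change 1.62, SE 0.2, limma adjusted p = 0.00552). A region of Aebp2, a partner of Polycomb complex PRC2, went from 47 and 101 at 48 h to 343 and 255 (change 1.6, SE 0.32, limma adjusted p = 0.0168). The next were at gene starts, at Mxra7 and Jmjd6 and at H3f3b, Galk1 and Itgb4, with changes of 1.35 and 1.13. The last of the 6 largest rises was 4769 bp from the nearest gene start and was assigned to Ap1b1, a subunit of a clathrin adaptor, and Gm10278, with 94 and 134 at 48 h and 366 and 317 at 120 h (change 1.1).

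The largest fall was in Arid1b, a subunit of the BAF remodelling complex, with 227 and 499 in the 0 h libraries, 84 and 162 in the 48 h libraries and 71 and 44 in the 120 h libraries (change -1.56, SE 0.29, limma adjusted p = 0.0128). It was followed by the start of Rbm10 and Uba1 on chromosome X, with 66 and 98 at 48 h and 61 and 32 at 120 h (change -1.37). A region of Erich1 changed by -1.35 and 1 of Clasp2, a microtubule-binding protein, by -1.23. Without centring, 7 of the 10 named regions were still called in the same direction and 3 were no longer called. Without 48 h replicate 2 all 10 missed the threshold, and without 120 h replicate 2 the number was 6.

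Shared regions with the short element were examined in the same fit, which was added after the data had been seen. Of the 557, 55 were higher at 120 h than at 48 h, or 9.87% against 9.47% of all, and 40 were lower, or 7.18% against 7.45%. Their median log2 change was -0.036. For the long element 4.31% of 1090 were higher and 9.27% lower, with a median of -0.197. With all 8 libraries, shared regions with the short element were thus called in either direction about as often as all shared regions. In single libraries, the median centred height of the shared regions with the short element was -0.175 in 120 h replicate 1 and -0.37 in replicate 2, and between -0.369 and -0.204 in the earlier libraries. For the long element it was -0.185 and -0.619 at 120 h. This rested on both 120 h libraries. Without 120 h replicate 1, 25 regions with the short element were higher, or 4.49% against 6.82% of all, and 8.44% were lower against 5.88%. Without 120 h replicate 2, 8 were higher, or 1.44% against 0.38% of all, and 0.539% were lower against 0.972%. With quantile normalization 1.8% were higher against 0.444% of all.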

How the data were processed

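ATAC-seq was measured in 8 libraries of sorted germ cells. The authors used BWA mem and mm10 for alignment, discarded duplicates, reduced libraries to equal tag numbers, extended tags to 200 bp and called peaks in each library with MACS2 2.1.0 without a control. The values used are the deposited signal (tag coverage) at the summit and the mean over the peak. Peaks were assigned by the authors to genes within 10 kb, and reads per region were not analysed here. The members, word lists, gene lists and elements were chosen with earlier results of these data known. Named were the 12 highest members, genes with at least 3, the highest members of each gene list, and the largest changes at shared regions of member genes. Summit features came from GENCODE vM21. Heights were fitted with limma 3.58.1 in R 4.3.3 (4 groups, Benjamini-Hochberg over 15536 regions, threshold 0.05), tested on simulated data. Of the 12 highest members, 2 are not reported here. No test was made on what chose the members. Python 3.11.15 with pandas 2.3.3 and scipy 1.17.1 was used.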

Additional observations from a re-analysis of the deposited data

How the results depend on the processing

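Replicates of one number did not deviate together at all timepoints (correlations of centred heights between timepoints from -0.224 to 0.248), and the replicate block gave 99 higher and 51 lower regions at member genes against 48 h and 235 and 103 against 0 h, with no named region lost. The number of members was 1375 with equal numbers of highest peaks per library (24643 in each), and 843 to 3853 when single libraries were left out. Other alternatives gave 609 to 980. The percent within 1000 bp of a gene start was 9.45 with equal numbers of peaks, 12.9 with windows at the summits, 1.89 with no earlier peak within 1000 bp, 17.7 with a limit of 3000 bp, and 4.72 to 8.84 with single libraries left out. The percent with the short element was 21.2 with equal numbers of peaks and 15.3 to 24.7 with single libraries left out. All these alternatives kept the share below 57.2% for gene starts and above 3.59% for the short element. These 2 values are those given above for the regions in all 8 libraries and were not computed again under the alternatives. The 57.2% is for a limit of 1000 bp and is no like comparison for the 17.7 at 3000 bp. The alternatives reuse many of the windows from which the short element was written, so for its share they are no independent check. At member genes against 48 h, counts of higher and lower regions were 228 and 1 without centring, 3 and 0 with quantile normalization, and with single libraries left out 0 to 89 and 0 to 56. Against 0 h they were 11 and 366, 84 and 61, and 86 to 213 and 52 to 95. For shared regions with the short element against 48 h they were 112 and 0, 10 and 3, and 0 to 61 and 0 to 47. Of 140 alternative values of the 10 named shared regions 108 stayed past the threshold, 32 did not and 0 changed direction. The cause of these changes was not tested. A height is known only where a peak was called, so a member may have had signal below the lowest called value of 24 or 25 at earlier timepoints, and 2 mice per timepoint limit the fit.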

Other observations

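Regions that were first called at 18 or 48 h and stayed called were few. The regions with a peak in both libraries of 48 and 120 h and in none of 0 and 18 h numbered 24, of which 4 held the short element and 7 the long one. Those with a peak in all libraries of 18, 48 and 120 h and in none of 0 h numbered 55, of which 2 held the short element, or 3.64% (95% Wilson interval 1.0 to 12.3). The same rule applied to 18 h gave 32 regions at 18 h alone and applied to 48 h gave 22.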
